A study of Arabidopsis thaliana with 18 samples.

Results

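Transcript levels of whole 7-day-old Arabidopsis thaliana seedlings were compared directly between the H3.3 knock-down line h3.3kd and the mutant elf7-3, both raised in short days at 27 °C. These are 6 of the 18 RNA-seq libraries of a study on histone variants in thermomorphogenesis, by which seedlings grow longer stems and stalks when it is warm but not hot. Each line had 3 libraries at 27 °C and 3 at 21 °C, as had the wild type Col, whose levels are quoted only for orientation. The h3.3kd genotype label carries the number of a single line, how it was made is not given in the sources used here, and elf7-3 is a single mutant allele, so a line and what it carries cannot be told apart. Of 27445 nuclear genes in the table, 19174 reached 1 TPM in at least 3 of the 6 libraries and were tested. A gene under 1 TPM in all libraries of 1 line could enter only through the other line, which then sets its direction. TPM are transcript levels per gene length, brought to the same sum in each library.

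H3.3 is the histone H3 variant that chaperones such as HIRA place into chromatin outside DNA replication, above all over transcribed genes, whereas H3.1 is deposited during replication. ELF7 is a subunit of the Paf1 complex, which travels with RNA polymerase II and is needed for histone modifications of transcribed chromatin. In Arabidopsis, loss of the Paf1 complex is best known for low expression of the flowering repressor FLC and early flowering. Both lines thus touch the chromatin of transcribed genes, the first through a building block and the second through the elongation machinery.

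Of 27433 genes with a known span, 27428 gave whole reads within 0.05 in every library, and the reads recovered in this way numbered 9011178, 13748911 and 13303886 in h3.3kd and 13489853, 13490904 and 13651137 in elf7-3. Replicate 1 of h3.3kd thus had the lowest depth. It also stood apart in organelle transcripts, which made up 3.66% of its TPM against 0.214% and 0.343% in the other h3.3kd libraries and between 0.159% and 0.221% in elf7-3 (exact permutation test, two-sided p = 0.2). Mitochondrial transcripts alone took 0.0659% to 0.241% in h3.3kd and 0.0275% to 0.0370% in elf7-3, with no overlap (p = 0.1, the smallest that an exact test of 3 against 3 can give). Nuclear genes were therefore rescaled to a common sum before they were compared.

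The genes that the lines were made to affect came first. HTR8, which encodes H3.3, stood at 19.0, 14.7 and 19.3 TPM in h3.3kd and at 249, 257 and 241 TPM in elf7-3. All h3.3kd libraries lay far below all elf7-3 libraries, and the log2 difference, h3.3kd minus elf7-3, was -3.75 ± 0.09 (SE, adjusted p = 1.1e-08, limma). HTR4, the neighbouring H3.3 gene of HTR5, stood at 53.3, 53.0 and 58.7 TPM against 226, 232 and 240 TPM (-2.06 ± 0.06). HTR5 was the least different of the H3.3 genes, with 276, 259 and 272 TPM against 664, 626 and 650 TPM (-1.26 ± 0.05). In Col, HTR8 stood at 184 to 197 TPM and HTR5 at 433 to 474 TPM, between the lines. HTR4 stood at 331 to 348 TPM in Col, above both lines. These genes have similar coding sequences and may share reads. ELF7 stood at 39.5, 33.2 and 37.8 TPM in h3.3kd and at 12.5, 13.5 and 13.2 TPM in elf7-3, a log2 difference of 1.42 ± 0.09 (adjusted p = 1.5e-06). Every library thus sat on the side its label gives.

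Across all genes tested, 9628 were called at an adjusted p under 0.05, which is 50.2%. Of these, 4163 genes (21.7% of those tested) were higher in h3.3kd and 5465 (28.5%) were lower. This excess of lower calls depends on the scaling, since median-of-ratios scaling gave 4809 higher and 4764 lower. Past 2-fold on the log2(TPM + 1) scale, 587 genes (3.06%) were higher and 925 (4.82%) lower. The libraries of the lines did not overlap for 11344 genes (59.2%). The median log2 difference over all genes was -0.05. Counts of list members below are read against these shares, since in a comparison this wide a list with these shares of higher and lower members sits at the background.

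The largest difference in favour of h3.3kd was that of AT1G07450, annotated as an NAD(P)-binding Rossmann-fold protein, with 31.6, 31.4 and 38.3 TPM against 0.653, 0.914 and 0.513 TPM (4.36 ± 0.14). The linker histone gene H1.3 followed with 4.3 ± 0.12, and an H4 gene, the auxin-induced SAUR22 and the small heat shock gene HSP17.6A were also among the 10 largest. The others were AT1G09500, of the same annotated family (3.69), AT5G44440, annotated as a berberine-type oxidase (3.63), AT5G65980, annotated as an auxin efflux carrier family member (3.33), CYP72A8, a cytochrome P450 (2.99), and FRO6, a leaf ferric reductase (2.97). AT5G44440 differed from the rest in that Col, at 42.4 to 43.0 TPM, lay above both h3.3kd (20.0, 29.9 and 21.4 TPM) and elf7-3 (0.511, 1.45 and 1.09 TPM). AT1G07450 and AT5G65980 were under 1 TPM in every elf7-3 library and passed the filter only through h3.3kd, which set their direction.

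In the other direction, M17, a late embryogenesis abundant protein gene, stood at 0.214, 1.4 and 0.293 TPM in h3.3kd and at 83.4, 71.8 and 70.0 TPM in elf7-3 (-5.61 ± 0.23). AT3G05727, annotated in a pollen coat protein family, stood at 0.901, 0.885 and 0.308 TPM against 59.4, 75.8 and 84.9 TPM (-5.46 ± 0.18). Both were near their elf7-3 levels in Col, so that h3.3kd was the line that stood low. MIOX2, AT4G22490, AZI1 and HTR8 also belonged to the 10 lowest, with AT1G75945 (-3.95), AT5G03545, a gene expressed in phosphate starvation (-3.69), and AT3G59930, a defensin-like gene (-3.69). AT3G05727 and AZI1 were under 1 TPM in every h3.3kd library and passed the filter only through elf7-3, which set their direction. AT4G09355 is an annotated gene of only 27 bases on chromosome 4 (TAIR10.1, 5937725 to 5937751). It had 0 reads in every h3.3kd library and 18, 18 and 27 reads in elf7-3, which makes it at least 18.6-fold higher there when 3 reads over the group are taken as the floor, and Col had 0 reads as well at 27 °C. AT3G55566, another very short gene (99 bases), named after its values were seen, had 0 reads in h3.3kd and 4, 2 and 12 in elf7-3 (at least 5.33-fold higher). Without reads in h3.3kd, AT4G09355 and AT3G55566 passed the filter only through elf7-3, which set their direction. Genes this short may hold reads of neighbouring transcripts, which was not tested.

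**Figure D1:**
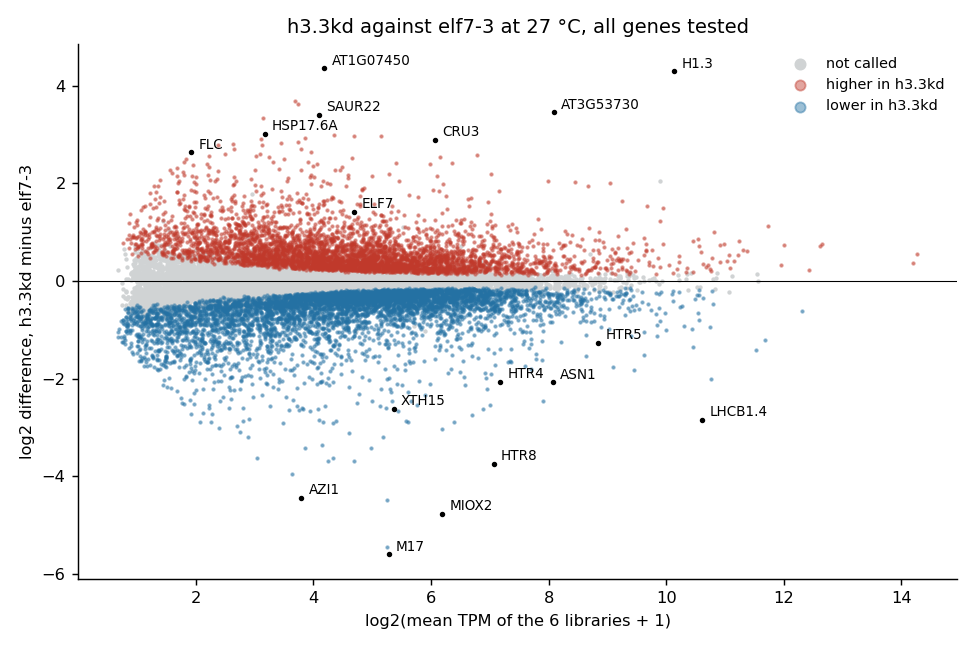
Each point is 1 of the genes tested, with its mean level over the 6 libraries on the x axis (log2 of TPM + 1) and the log2 difference, h3.3kd minus elf7-3 at 27 °C, on the y axis. Red points were called higher and blue points lower in h3.3kd, and the 2 genes without a read in h3.3kd are left out. H1.3 combines a high level with a difference of 4.3, and MIOX2 and M17 lie at -4.77 and -5.61.

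Of the 28 H4, H2A, H2B and H1 genes, 21 were called higher in h3.3kd (75%) and 1 lower, and the H2A genes were the family with the fewest higher calls for its size, 4 of 9. H1.3, a linker histone known for its induction by drought and low light, stood at 2198, 1987 and 2241 TPM in h3.3kd and at 125, 86.2 and 115 TPM in elf7-3, while Col had 163 to 204 TPM. All 8 H4 genes were called higher in h3.3kd, with log2 differences from 1.05 to 3.46 and a median of 1.97. The H4 gene AT3G53730 stood at 531, 472 and 497 TPM against 44.8, 42.5 and 46.1 TPM (3.46 ± 0.06, adjusted p = 1.4e-09). AT3G45930, a second H4 gene, stood at 185, 192 and 186 TPM against 31.3, 29.7 and 29.7 TPM (2.59 ± 0.05). In both, the elf7-3 libraries lay within the range of Col. H4 copies are close in sequence and reads may be shared among them, though the differences of single genes ranged widely.

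The other core histone families had smaller medians than H4. Of 8 H2B genes, 6 were called higher and 0 lower, led by HTB6 with 19.3, 17 and 18.4 TPM against 3.09, 2.12 and 2.09 TPM (2.50 ± 0.14). Of 9 H2A genes, 4 were higher and 1 lower, and HTA1 stood at 74.0, 69.9 and 70.7 TPM in h3.3kd and 80.1, 63.4 and 72.1 TPM in elf7-3, a difference of 0.00 ± 0.08 that was not called. All 5 H3.1 genes were called higher, with a median of 0.72. HTR3 had the largest H3.1 difference (1.45 ± 0.13), at 9.03 to 10.9 TPM against 2.83 to 3.1 TPM. HTR2 (0.84), HTR9 (0.72) and HTR13 (0.66) followed. The median over the 28 histone genes outside the H3 family was 0.85, and their summed level was 7723 to 8150 TPM in h3.3kd and 2894 to 3153 TPM in elf7-3.

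**Figure D2:**
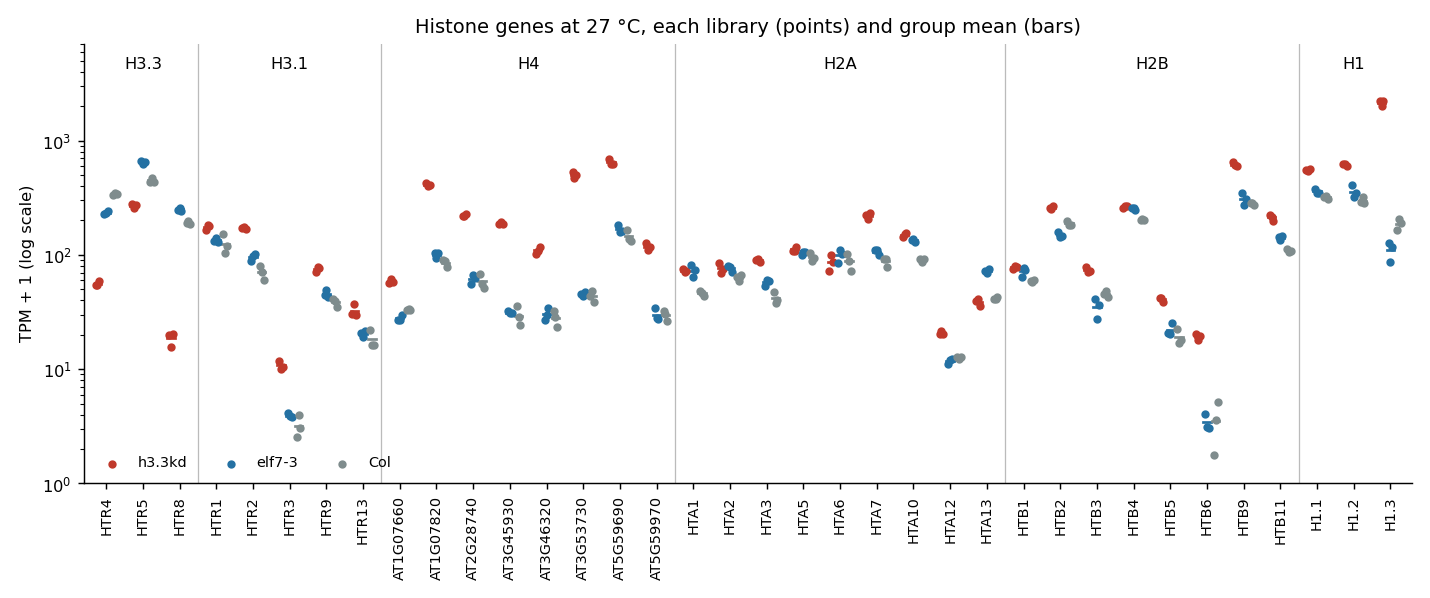
Each point is 1 library at 27 °C and each bar the mean of 3, for the H3.3, H3.1, H4, H2A, H2B and H1 genes along the x axis, with TPM + 1 on a logarithmic y axis. The H3.3 genes are the group in which h3.3kd (red) lies below elf7-3 (blue), whereas all 8 H4 genes and H1.3 lie above it.

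Core histone genes of plants are known for a promoter octamer, CGCGGATC, linked to their expression in dividing cells. It was searched on both strands in the 250 bases before each annotated start, where it was found in 29 of 19164 promoters of tested genes (0.151%) and in 9 of 33 promoters of H3.1, H4, H2A, H2B and H1 genes (27.3%). Promoters of 4 H4 genes are shown because they set this motif beside the size of the difference. The first pair was chosen for holding the octamer, in capitals below, and the second pair for the largest differences. The bases are from TAIR10.1 (RefSeq), and each run is written 5′ to 3′ on the strand of its gene. They are chr5:24051224-24051473 on the plus strand (AT5G59690), chr1:2368583-2368832 on the plus strand (AT1G07660), chr3:19913516-19913765 on the minus strand (AT3G53730) and chr3:16883066-16883315 on the plus strand (AT3G45930).
AT5G59690: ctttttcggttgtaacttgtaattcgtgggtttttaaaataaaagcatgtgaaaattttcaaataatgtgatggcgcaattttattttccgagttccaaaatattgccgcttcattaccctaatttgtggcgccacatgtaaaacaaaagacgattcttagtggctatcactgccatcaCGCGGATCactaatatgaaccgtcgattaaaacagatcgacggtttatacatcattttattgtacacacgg
AT1G07660: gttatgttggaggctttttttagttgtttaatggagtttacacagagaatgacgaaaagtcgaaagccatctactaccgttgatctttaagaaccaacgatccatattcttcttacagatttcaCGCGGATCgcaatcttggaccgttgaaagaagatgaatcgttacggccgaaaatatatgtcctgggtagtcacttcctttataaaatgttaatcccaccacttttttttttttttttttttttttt
AT3G53730: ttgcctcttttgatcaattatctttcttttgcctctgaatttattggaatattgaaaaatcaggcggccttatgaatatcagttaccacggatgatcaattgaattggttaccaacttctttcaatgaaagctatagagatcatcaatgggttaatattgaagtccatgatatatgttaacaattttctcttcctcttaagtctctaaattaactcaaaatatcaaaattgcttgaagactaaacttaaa
AT3G45930: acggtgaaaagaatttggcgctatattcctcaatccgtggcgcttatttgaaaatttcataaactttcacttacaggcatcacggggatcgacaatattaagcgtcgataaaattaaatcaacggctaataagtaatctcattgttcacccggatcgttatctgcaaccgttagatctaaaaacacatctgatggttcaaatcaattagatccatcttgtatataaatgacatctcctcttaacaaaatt
AT5G59690, with the octamer 71 bases before its start, had a log2 difference of 1.95, and AT1G07660, with the octamer at 126 bases, had 1.05. The letters were not found in the windows of AT3G53730, AT3G45930 and H1.3, the histone genes with differences of 3.46, 2.59 and 4.3. Among the 9 histone genes with the octamer, 7 were called higher and 1 lower, with a median of 0.63 and a range from -0.91 to 1.95. Of the 24 without it, 19 were higher and 0 lower, with a median of 0.95 and a range from 0.00 to 4.3. Higher calls were thus found in both sets. The search took exact matches only, close variants of the letters were not counted, and a link between the octamer and the differences was not tested.

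Genes of H2A.Z and its remodellers did not move as a group. Of 12, 3 were called higher, 3 lower and 6 neither, all within 0.64 on the log2 scale. PIE1, the catalytic subunit of the SWR1 complex that inserts H2A.Z, was higher in h3.3kd, at 16.5, 16.7 and 18.5 TPM against 10.1, 11.1 and 11 TPM (0.63 ± 0.09). ARP6 of the same complex was lower, at 40.8 to 41.4 TPM against 53.9 to 58.5 TPM (-0.44 ± 0.06). SWC6 was higher (0.40), and so was EEN of the INO80 complex (0.54), a call that is lost when single libraries are left out (0.38 to 0.56). HTA9, which encodes H2A.Z itself, was not called, at 244, 229 and 209 TPM against 245, 207 and 222 TPM.

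The H3 chaperones gave 3 higher and 2 lower of 10. HIRA, which deposits H3.3, stood at 11.7, 11.9 and 13.7 TPM against 8.37, 7.32 and 8.58 TPM (0.56 ± 0.11). ASF1B, which hands H3 to other chaperones, was higher (0.55), and so was CABIN1 of the HIRA complex (0.38). FAS1, of the CAF-1 complex that deposits H3.1, was lower (-0.49).

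Partners of ELF7 in elongation were lower in h3.3kd more often than higher. Of 20 genes in the list, 10 were lower (50%) and 3 higher, ELF7 among the latter. SPT16 and SSRP1, the subunits of the histone chaperone FACT, were the lowest. SPT16 stood at 53.9, 53.2 and 52.0 TPM against 104, 104 and 105 TPM (-0.96 ± 0.05), with Col between the lines at 73.2 to 80.0 TPM. SSRP1 stood at 47.8, 47.1 and 45.6 TPM against 77.0, 79.5 and 75.6 TPM (-0.71 ± 0.06). SPT4-1, a small partner of the elongation factor SPT5, was higher (1.0 ± 0.15). CDC73, a Paf1 complex subunit, was not called, at 22.8 to 24.8 TPM against 23.1 to 27.4 TPM.

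The FLC clade, MADS-box repressors of flowering, was higher in h3.3kd in all 6 of its members. FLC itself stood at 6.96, 4.18 and 5.54 TPM in h3.3kd and at 0.0304, 0.0304 and 0.0597 TPM in elf7-3 (2.64 ± 0.20). The elf7-3 libraries were near 0, and h3.3kd lay close to the 6.33 to 9.03 TPM of Col. FLM (1.37 ± 0.11), MAF4 (1.48 ± 0.16) and MAF5 (0.91 ± 0.19) were also higher. FLC and MAF5 were under 1 TPM in every elf7-3 library and passed the filter only through h3.3kd, which set their direction. MAF4, unlike FLC, stood above Col in h3.3kd, at 5.15 to 6.73 TPM against 2.62 to 3.83 TPM, with elf7-3 at 1.24 to 1.52 TPM. The remaining 4 flowering genes that were tested were not called. SVP, the partner of FLC and FLM, was at 35.9 to 41.2 TPM against 40.6 to 45.6 TPM. FT and 7 other flowering genes were below the filter.

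Genes that respond to auxin, the hormone that drives warm hypocotyl elongation, were higher in h3.3kd. Of 26 tested, 17 were higher and 2 lower (65.4% and 7.69%), with a median of 1.08. The growth-promoting genes SAUR19 to SAUR28 are among them, with 9 of 9 tested members higher, a range from 1.33 to 3.41 and a median of 2.13. SAUR22 stood at 25, 33.3 and 32.0 TPM against 1.23, 2.71 and 1.94 TPM (3.41 ± 0.19), and Col at 7.02 to 14.3 TPM lay between the lines. SAUR23 stood at 20.8, 23.6 and 22.5 TPM against 1.59, 3.64 and 1.79 TPM (2.85 ± 0.20). SAUR19 (2.71) and SAUR20 (2.39) followed. These genes lie in clusters of near-identical copies, and reads may be shared among them. Of 12 Aux/IAA genes, repressors of the auxin response, 5 were higher and 2 lower, and IAA19 at 8.08 to 11.7 TPM against 10.3 to 16.2 TPM was not called.

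Auxin synthesis gave 5 higher and 2 lower of 9. TAR2, an aminotransferase of the first step, stood at 9.14, 7.64 and 8.36 TPM against 1.21, 2.13 and 2.29 TPM (1.72 ± 0.18). Of the YUCCA monooxygenases of the second step, YUC3 (1.52 ± 0.16) and YUC8 (1.09 ± 0.19) were higher and YUC6 was lower (-1.31 ± 0.12). YUC8, a target of the thermosensory factor PIF4, stood at 14.3, 17.4 and 10.5 TPM in h3.3kd and 6.17, 7.22 and 4.70 TPM in elf7-3, both below the 28.8 to 36 TPM of Col. With a filter at 5 TPM, 3 of these genes remained as higher calls.

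Among growth regulators of warmth and shade, 7 of 23 were higher and 6 lower. ATHB2, a homeodomain factor of shade avoidance, stood at 28.3, 27.2 and 26.7 TPM against 7.41, 9.87 and 6.77 TPM (1.67 ± 0.12). HFR1, an inhibitor of PIFs, stood at 24.8 to 29.0 TPM against 8.54 to 9.67 TPM (1.46 ± 0.09), and HAT2, a relative of ATHB2, was higher too (1.04 ± 0.09). PRE3, a small growth-promoting bHLH factor, was lower, at 3.26, 6.01 and 4.85 TPM against 13.3, 18 and 12.2 TPM (-1.45 ± 0.20). PIF7, a warmth-responsive PIF, was not called, at 3.77 to 4.15 TPM against 3.65 to 5.59 TPM.

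Cell wall genes split by family. Of 14 XTH genes, whose enzymes cut and rejoin xyloglucan, 10 were lower in h3.3kd and 1 higher, with a median of -0.81. XTH15 stood at 10.5, 13.5 and 7.98 TPM against 83.4, 61.8 and 64.8 TPM (-2.62 ± 0.17), with Col at 160 to 187 TPM above both lines. XTH24 stood at 244, 219 and 270 TPM against 1035, 717 and 775 TPM (-1.77 ± 0.13), and XTH17 was lower as well (-1.96 ± 0.14). Of 10 expansin genes, whose proteins loosen walls, 6 were higher and 0 lower, led by EXPA2 with 37.2, 26.8 and 25.6 TPM against 9.35, 8.74 and 6.67 TPM (1.73 ± 0.16). Hormone genes of gibberellin and brassinosteroid gave 4 higher and 8 lower of 20. The brassinosteroid hydroxylase DWF4 was at 20.8 to 22.3 TPM against 42.5 to 47.8 TPM (-1.01 ± 0.07). BR6OX1 (-1.19), GA3OX1, which makes active gibberellin (-1.19), and GA2OX2, which inactivates it (-1.0), were lower too, while the DELLA repressor gene GAI was not called (0.14). BR6OX1, which counts in the 8 lower calls, was under 1 TPM in every h3.3kd library. It passed the filter only through elf7-3, which set its direction.

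**Figure D3:**
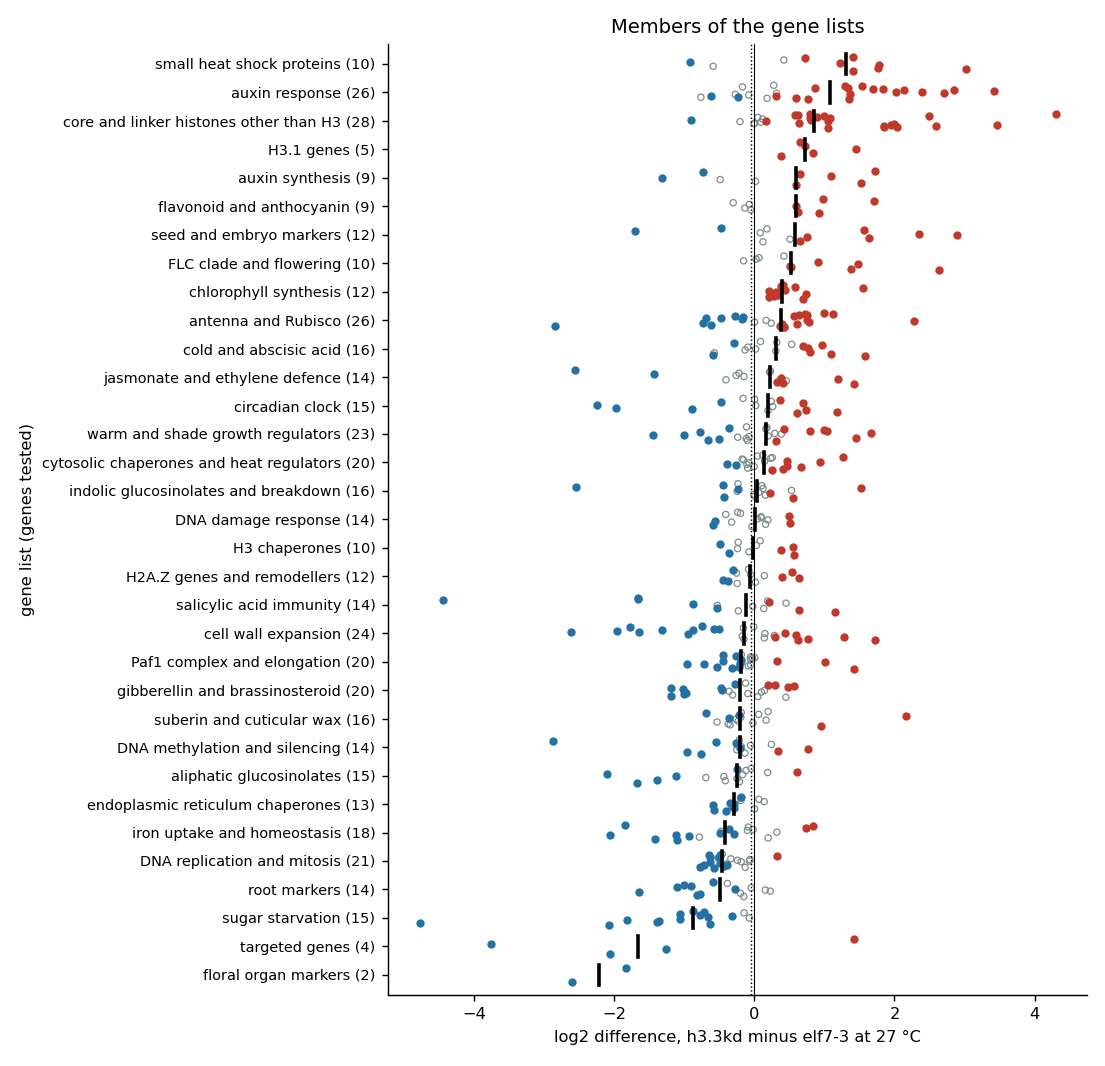
Each row is a gene list with the number of genes tested, and each point a member's log2 difference, h3.3kd minus elf7-3 at 27 °C, on the x axis. Filled red and blue points were called higher and lower, open points were not called, black bars are list medians, and the dotted line is the median of all genes (-0.05). Small heat shock proteins, auxin response and histones have the highest medians of the lists (1.31, 1.08 and 0.85), and floral organ markers, targeted genes and sugar starvation the lowest. Among members named in the text, the floral organ markers, AZI1, VSP1 and BR6OX1 passed the filter only through elf7-3. HSP17.6II, HSP23.6, FLC and MAF5 passed it only through h3.3kd. In each case that line set the direction.

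Small heat shock protein genes, which encode chaperones that hold unfolding proteins, were higher in h3.3kd in 7 of 10 members and lower in 1, with a median of 1.31. HSP17.6A stood at 10, 15.3 and 19.5 TPM against 0.627, 2.51 and 0.205 TPM (3.02 ± 0.36). HSP17.6C stood at 4.15, 11.1 and 11.1 TPM against 0.818, 2.45 and 2.01 TPM (1.77 ± 0.34). HSP17.6II (1.77 ± 0.23) and HSP23.6 (1.41 ± 0.20) were also higher, and both count in the 7 calls and the median. They were under 1 TPM in every elf7-3 library and passed the filter only through h3.3kd, which set their direction. Replicate 1 of h3.3kd was the lowest of its group in these genes, but lay above every elf7-3 library. All were at low levels, and with a filter at 5 TPM 4 members were called higher. Among heat regulators and larger cytosolic chaperones, 7 of 20 were higher and 2 lower. The coactivator MBF1C stood at 34.1, 44.0 and 50.1 TPM against 16.4, 17.3 and 17.4 TPM (1.263 ± 0.12). The heat shock factor HSFA2 (0.94) and HSP70-4 (0.67) were higher, and HSP101 was not called, at 10.1 to 15.5 TPM against 13.5 to 15.2 TPM. Chaperones of the endoplasmic reticulum went the other way, with 8 of 13 lower and 0 higher. BIP2 stood at 74.5, 83.9 and 82.0 TPM against 112, 135 and 115 TPM (-0.58 ± 0.08), and CRT3 (-0.59), BIP1 (-0.40) and PDIL1-1 (-0.35) were also lower.

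Genes of chlorophyll synthesis were higher in h3.3kd in 12 of 12 members tested, with a median of 0.39. PORB, which carries out the light-dependent step, stood at 1182, 1300 and 1181 TPM against 381, 434 and 437 TPM (1.55 ± 0.07). CHLH, a subunit of the magnesium chelatase, stood at 430, 456 and 446 TPM against 240, 270 and 289 TPM (0.74 ± 0.07), followed by HEMA1 of the first committed step (0.69) and PORC (0.58). Genes of carbon fixation were higher in 6 of 6, with a median of 0.74. Rubisco activase, RCA, stood at 4668, 4868 and 4383 TPM against 1969, 2121 and 2311 TPM (1.12 ± 0.08). CA1, a carbonic anhydrase, stood at 2429, 2528 and 2272 TPM against 1116, 1205 and 1302 TPM (1.0 ± 0.07). In both genes every h3.3kd library lay above every Col library and every elf7-3 library below. As whole seedlings were sampled, fewer cells of a type and less RNA per cell cannot be told apart, here and in the comparisons that follow.

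The 20 antenna genes split evenly, with 8 higher and 8 lower. LHCB1.4 had the largest difference, at 379, 395 and 373 TPM in h3.3kd against 2839, 2863 and 2568 TPM in elf7-3 (-2.85 ± 0.06). Col lay between them at 612 to 834 TPM. LHCB1 genes are near-identical, and reads may be shared among them. LHCB4.3, a minor antenna gene, stood at 32.4, 38.5 and 28.6 TPM against 5.23, 6.77 and 6.15 TPM (2.27 ± 0.13). LHCB4.1 was not called, at 2993, 3100 and 3010 TPM against 2931, 3008 and 3149 TPM.

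Clock genes, which time expression to the day, gave 5 higher and 4 lower of 15. The daytime and evening genes GI and PRR7 were low in h3.3kd. GI stood at 0.841, 1.39 and 1.03 TPM against 9.37, 10 and 7.26 TPM (-2.24 ± 0.17), with Col at 3.75 to 5.73 TPM between the lines. PRR7 stood at 1.72, 1.37 and 1.39 TPM against 9.96, 8.09 and 8.24 TPM (-1.97 ± 0.15), and LNK2 was lower as well (-0.90). RVE4, an activator of evening genes, was higher, at 119 to 130 TPM against 52.7 to 56.8 TPM (1.18 ± 0.06). TOC1 was not called, at 202 to 214 TPM against 195 to 218 TPM. The hour of harvest is not given in the sources used here.

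Genes induced by sugar starvation and darkness were lower in h3.3kd in 13 of 15 members (86.7%) and higher in 0, with a median of -0.88. MIOX2, a myo-inositol oxygenase, stood at 2.66, 4.74 and 5.14 TPM against 181, 119 and 119 TPM (-4.77 ± 0.21), while Col had 84.3 to 105 TPM. ASN1, the dark-induced asparagine synthetase, stood at 121, 97.3 and 85.3 TPM against 560, 322 and 427 TPM (-2.08 ± 0.18). SEN1 stood at 358, 279 and 284 TPM against 1348, 903 and 1033 TPM (-1.82 ± 0.14), and DIN2, a dark-induced glucosidase, was lower (-1.39 ± 0.23). In MIOX2, ASN1 and SEN1 the h3.3kd libraries lay far below those of Col and elf7-3. The members not called were KMD4 (-0.15) and TPS8 (-0.07).

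**Figure D4:**
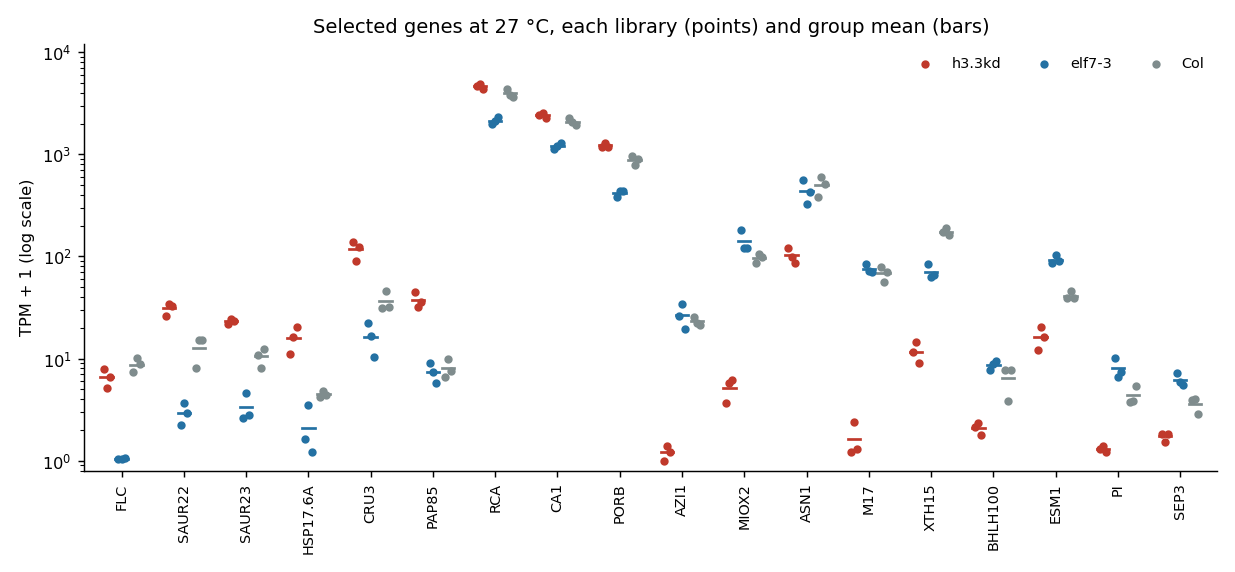
Each point is 1 library at 27 °C and each bar the mean of 3, for 18 genes named in the text along the x axis, with TPM + 1 on a logarithmic y axis. FLC is near 0 in elf7-3 (blue), at 0.0304 to 0.0597 TPM, whereas AZI1, MIOX2 and M17 are low in h3.3kd (red), with Col (grey) far above the low line in each case.

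Single defence genes were called in both directions. AZI1, a lipid-transfer-like protein of systemic immunity, had reads of 0, 2 and 1 in h3.3kd against 118, 155 and 89 in elf7-3, or 0 to 0.405 TPM against 18.6 to 33 TPM (-4.44 ± 0.21). Its neighbours on chromosome 4, AT4G12510 (-1.66 ± 0.27) and AT4G12520 (-1.65 ± 0.28), were lower as well, and these neighbours are close copies that may share reads. Of the 6 genes of this cluster only these 3, with AZI1, were tested, and the others were below the filter. AT4G22490, annotated as the same kind of protein, was at 1.86 to 2.90 TPM against 61.8 to 87.8 TPM (-4.48 ± 0.15). ICS1, the main enzyme of salicylic acid synthesis, was higher in h3.3kd (1.16 ± 0.14). The salicylic acid list as a whole had 3 higher and 5 lower of 14 (21.4% and 35.7%). These shares were near the 21.7% and 28.5% of all genes tested. In the jasmonate and ethylene list 5 of 14 were higher and 2 lower (35.7% and 14.3%). CHIB, a basic chitinase, stood at 0.578, 2.27 and 2.86 TPM against 11.1, 17.2 and 17.3 TPM (-2.55 ± 0.31), and VSP1 was lower (-1.43). AZI1 and VSP1 were under 1 TPM in every h3.3kd library and passed the filter only through elf7-3, which set their direction. The jasmonate synthesis genes LOX2 (1.42 ± 0.37) and OPR3 (1.19 ± 0.11) were higher.

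Glucosinolates are the sulphur-rich defence compounds of the cabbage family. Of 15 genes of the aliphatic branch, 5 were lower (33.3%) and 1 higher (6.67%). The lower share was near the 28.5% of all genes tested. MYB28, its main activator, stood at 12.9, 17.8 and 15.4 TPM against 41.3, 57.3 and 55.0 TPM (-1.67 ± 0.14). CYP83A1, a core P450 of the branch, stood at 0.935, 3.94 and 2.56 TPM against 7.09, 20.4 and 14.3 TPM (-2.1 ± 0.38). BCAT4 (-1.39) and IMD1 (-1.11), enzymes of chain elongation, were lower too, though in both the libraries of the lines overlapped. In these enzyme genes replicate 1 was the lowest and replicate 2 the highest library of both lines, and with the replicate number as a block 8 members were lower. The indolic and breakdown list had 3 higher and 4 lower of 16. ESM1, a modifier of glucosinolate breakdown, stood at 11.1, 19.2 and 15.3 TPM against 85.0, 101 and 88.7 TPM (-2.54 ± 0.16). ESP, the epithiospecifier protein that ESM1 is known to counter, differed in the other direction, at 3.72, 5.09 and 5.93 TPM against 0.741, 1.42 and 1.01 TPM (1.52 ± 0.20). MYB34, an activator of the indolic branch, was higher (0.56), and NSP5 was lower (-0.44).

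Flavonoid genes were higher in 5 of 9 members tested and lower in 0. UGT78D1, a flavonol glycosyltransferase, stood at 85.9, 87.2 and 76.5 TPM against 23.9, 23.8 and 26.2 TPM (1.71 ± 0.07). UGT78D2 (0.99), CHS, the entry enzyme (0.93), and CHI (0.62) were higher, and F3H was not called, at 16.4 to 21.9 TPM against 20.0 to 20.6 TPM. Of 20 members, 11 were below the filter. Cold and abscisic acid genes gave 6 higher and 2 lower of 16, led by COR15B, a chloroplast protectant, with 3.14 to 4.46 TPM against 0.400 to 1.08 TPM (1.58 ± 0.21). KIN2 (1.1), HAI1 (0.96) and LTI78 (0.79) were also higher. The calls of KIN2 and HAI1 are lost when single libraries are left out, KIN2 without h3.3kd replicate 3 or elf7-3 replicate 1 or 2 (0.75 to 1.04) and HAI1 without elf7-3 replicate 2 (0.83). RAB18 was not called, at 226 to 290 TPM against 245 to 328 TPM.

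Genes of iron uptake and homeostasis were lower in h3.3kd in 9 of 18 members (50%) and higher in 2. The iron-deficiency bHLH gene BHLH100 stood at 1.13, 1.36 and 0.773 TPM against 6.76, 7.79 and 8.43 TPM (-2.06 ± 0.16). BHLH101 was lower (-1.11 ± 0.12), as were VTL2, an iron transporter gene (-1.84 ± 0.18), and the root ferric reductase FRO2 (-1.41 ± 0.27). FIT, the root regulator of FRO2, was not called, at 8.42 to 10.5 TPM against 6.15 to 12.7 TPM. Root markers moved with these genes. Of 14, 8 were lower and 0 higher, with a median of -0.49, and their summed level ranged from 286 to 344 TPM in h3.3kd and from 377 to 469 TPM in elf7-3. The Casparian strip gene CASP5 (-1.65 ± 0.18), the iron transporter IRT1 (-1.11), the root-hair expansin EXPA7 (-1.0) and the root-hair gene COBL9 (-0.90) were the lowest, while CASP1 at 39.7 to 44.4 TPM against 46.3 to 48.2 TPM was not called. IRT1 is in both lists. The part of root tissue in the iron result was not tested. Suberin and wax genes, the former mainly of the root, gave 2 higher and 3 lower of 16. CER1, an enzyme of cuticular alkane synthesis, stood at 25, 20.0 and 28.0 TPM against 3.23, 4.56 and 6.39 TPM (2.17 ± 0.19), and GPAT5 was higher (0.95, a call lost without elf7-3 replicate 1, at 0.87). CER6 (-0.70) and KCS20 (-0.36) were lower, and without h3.3kd replicate 3 this list had 8 lower calls.

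Genes of DNA replication and mitosis were lower in 11 of 21 members (52.4%) and higher in 1, with a median of -0.46. MCM4, of the replicative helicase, stood at 6.91, 7.16 and 6.36 TPM against 10.7, 13.1 and 13.2 TPM (-0.77 ± 0.12). MCM7 (-0.72), the mitotic kinase AUR1 (-0.65) and the mitotic cyclin CYCB1;1 (-0.64) were lower as well. Histone transcripts, many of which accompany replication, were mostly on the other side, apart from those of H3.3, as described above. Among 9 H2A genes only 4 were higher and 1 was lower. How the histone and replication genes relate was not tested. The list of DNA damage genes had 2 higher and 2 lower of 14. PARP2 (0.51), GMI1 (0.50) and RNR1 (-0.57) were called, and BRCA1 (-0.59) lost its call without elf7-3 replicate 2 (-0.47). The list of DNA methylation and silencing had 2 higher and 6 lower. The maintenance methyltransferases CMT3, at 10.5 to 11 TPM against 19.9 to 24.1 TPM (-0.96 ± 0.09), and MET1 (-0.77 ± 0.08) were lower, and the demethylase ROS1, at 5.86 to 6.35 TPM against 3.1 to 3.15 TPM, was higher (0.77 ± 0.13). QQS, a gene known to vary epigenetically between plants of the same strain, stood at 3.62, 2.96 and 5.76 TPM in h3.3kd and 38.2, 34.3 and 34.1 TPM in elf7-3 (-2.87 ± 0.17), both above the 0.426 to 1.78 TPM of Col.

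Seed and floral genes were measured because whole seedlings can hold remnants of one stage and precursors of another. Of 12 seed and embryo genes tested, 6 were higher and 2 lower, with a median of 0.58, and their summed level was 332 to 440 TPM in h3.3kd and 164 to 213 TPM in elf7-3. CRU3, a seed storage globulin, stood at 139, 89.4 and 124 TPM against 21.1, 15.6 and 9.37 TPM (2.90 ± 0.24). PAP85, a storage protein of the vicilin type (2.35 ± 0.17), and the albumin SESA5 (1.64 ± 0.19) were higher. OLEO2, which coats oil bodies, was lower, at 6.66, 8.12 and 11.38 TPM against 33.3, 25.9 and 31.0 TPM (-1.70 ± 0.16). The late embryogenesis gene M17 described above was lower too, so that genes of seed maturation lay on both sides. Both floral organ genes tested were lower in h3.3kd, a direction fixed by the filter. They were under 1 TPM in every h3.3kd library and passed it only through elf7-3. The petal and stamen gene PI stood at 0.307, 0.402 and 0.210 TPM against 9.17, 5.57 and 6.38 TPM (-2.60 ± 0.20), and SEP3 at 0.826, 0.541 and 0.847 TPM against 6.27, 4.84 and 4.55 TPM (-1.83 ± 0.18). In both, Col lay between the lines, and the other 4 floral genes were below the filter.

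The difference between the lines was then set against the same difference at 21 °C, which rests on other libraries. Of the 9628 genes called at 27 °C, 8734 (90.7%) had the same sign at 21 °C, and 5782 (60.1%) were called there with the same sign, against 153 with the opposite sign. At 21 °C 8238 genes (43%) were called in all. Across all 19174 genes Pearson's r of both differences was 0.75, a description, since genes are not independent. The interaction, the log2 difference at 27 °C minus that at 21 °C, was called for 1896 genes (9.89%), of which 871 were positive (4.54%) and 1025 negative (5.35%). With median-of-ratios scaling the balance turned, with 965 positive and 940 negative.

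The H3.3 genes were less far apart at 27 °C than at 21 °C (interaction 0.61 for HTR4, 0.59 for HTR8 and 0.28 for HTR5). The H4 genes went apart further in the warmth, with a positive interaction called in 5 of 8 and a negative one in 0. AT3G53730 differed by 3.46 at 27 °C and 2.21 at 21 °C, and H1.3 by 4.3 and 3.63. The auxin response list had 16 positive interactions of 26 and 0 negative. SAUR22 differed by 3.41 at 27 °C and by 0.44 at 21 °C (interaction 2.97), and the median difference of the list at 21 °C was 0.18. Of the small heat shock genes, 5 of 10 had a positive and 1 a negative interaction, and HSP17.6A changed from -0.88 at 21 °C to 3.02. AZI1, by contrast, was low in h3.3kd at both temperatures (-4.44 and -4.87, interaction not called), and so was FLC in elf7-3.

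The largest interactions named other genes. AT5G42530, an uncharacterized gene, stood at 26.8, 38.4 and 36.1 TPM in elf7-3 and 0.829 to 1.11 TPM in h3.3kd at 21 °C, but at 1.41 to 2.14 TPM and 3.11 to 4.98 TPM at 27 °C (5.04). AT2G25510, also uncharacterized, stood at 45.7, 75.4 and 70.9 TPM in elf7-3 at 21 °C and 1.75, 3.5 and 2.1 TPM at 27 °C, with h3.3kd below 1.5 TPM at both (4.47). ECS1, a cell wall protein gene, was higher in elf7-3 at 21 °C (67.4 to 93.8 against 11.2 to 32.1 TPM) and higher in h3.3kd at 27 °C (35.3 to 48.2 against 6.87 to 14.2 TPM), an interaction of 3.88. CRU3 (3.65) and HSP17.6A (3.90) complete the 5 largest positive values. On the negative side, AT4G22490 stood at 34.6 to 47.5 TPM in h3.3kd and 49.6 to 67.8 TPM in elf7-3 at 21 °C, and at 1.86 to 2.90 TPM against 61.8 to 87.8 TPM at 27 °C (-3.99). AT3G05727 (-3.67) and MIOX2 (-3.30) also had larger negative differences at 27 °C than at 21 °C. CYP83A1 changed from 1.13 at 21 °C to -2.1 (-3.23), and the seed aquaporin TIP3;1 from 2.78 to -0.42 (-3.21), though its small difference at 27 °C lost its call when single libraries were left out.

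**Figure D5:**
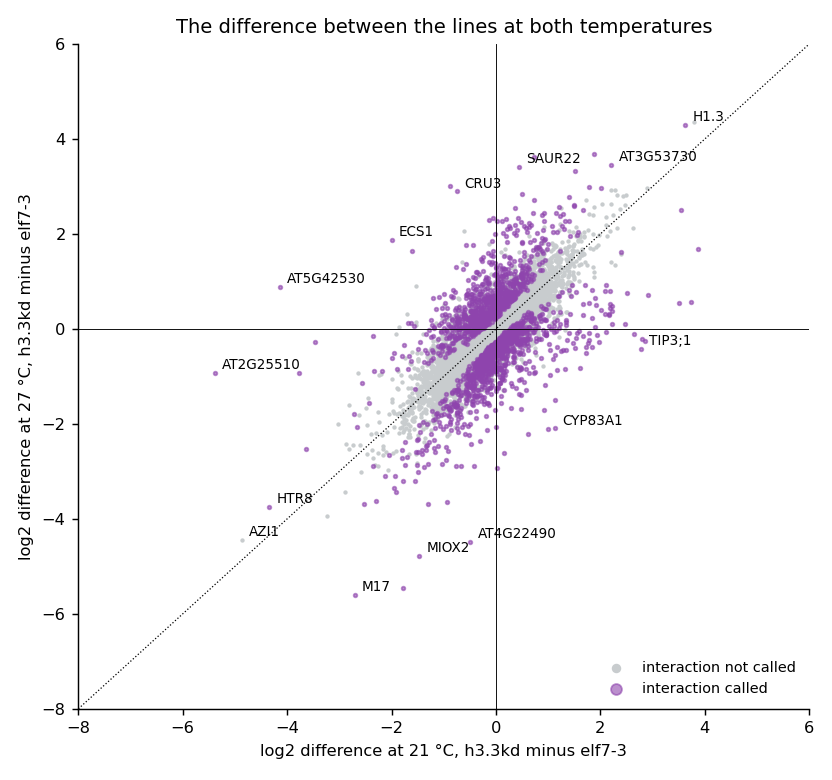
Each point is 1 gene, with its log2 difference, h3.3kd minus elf7-3, at 21 °C on the x axis and at 27 °C on the y axis, and purple points have a called interaction. The dotted line marks equal differences. AZI1, with no called interaction, lies close to the line, H1.3 and HTR8 lie above it by 0.675 and 0.59, SAUR22 and CRU3 are far above it, and MIOX2, AT4G22490 and CYP83A1 far below.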

How the data were processed

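Libraries were made from total RNA with a NEBNext Ultra kit, per the labels' protocols. Named in the submitters' processing notes, without roles, are the build TAIR10 and the tools HTSeq 0.11.2, DESeq2 1.26.0, HISAT2 2.1.10 and fastp 0.20.1. The authors deposited 1 table of TPM, each column summing to 1000000 over 27655 genes, 88 chloroplast and 122 mitochondrial. All 18 columns matched 1 label each. With gene span (introns included) as length, the low values of 100% of 2081 genes became whole reads within 0.01 (22.7% of 2698 with exon lengths), so levels of intron-rich genes are understated. Strandedness is not given in the sources used here.

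Nuclear TPM were rescaled to a sum of 1000000, and log2(TPM + 1), which shrinks differences of low genes, was fitted with limma 3.58.1 (R 4.3.3) on the 6 libraries, with a mean-dependent prior, two-sided, Benjamini-Hochberg over 19174 genes. ± is the standard error (n = 3 per group). The interaction used the 12 libraries of both lines. Replicates are not said to be separate cultures, and the spread behind each p-value may be technical. Members and the 33 gene lists were chosen with earlier results of these data known. Named are the targeted genes, the 10 largest differences of each sign (non-overlapping, mean of at least 5 TPM in the higher group), up to 4 called members a list with examples not called, and the 5 largest interactions of each sign (mean of at least 5 TPM in a group). In simulated data of this comparison with 200 of 19174 genes changed, 47.8%, 83.6% and 93.9% were recovered at log2 changes of 0.5, 1 and 2, with 9 false calls. In the data 50.2% of genes were called, a far larger share, so these rates do not carry over to it. Tables and plots used Python 3.11.15, pandas 2.3.3, numpy 2.4.6, scipy 1.17.1 and matplotlib 3.10.9.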

Additional observations from a re-analysis of the deposited data

Results flagged for a closer look

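The log2 difference between the lines, h3.3kd minus elf7-3, was not equal at both temperatures for 73 of the values named, by the interaction term of the limma fit (adjusted p under 0.05, Benjamini-Hochberg over all genes tested). Over all genes tested the interaction was called for 9.89%. Most genes named were chosen for large differences at 27 °C or large interactions, so the count follows in part from that choice. Each value below is the difference at 27 °C minus that at 21 °C, and no explanation was tested.

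Among the targeted and histone genes the interaction was 0.606 for HTR4, 0.281 for HTR5, 0.59 for HTR8, 0.675 for H1.3, 1.25 for AT3G53730, 1.1 for AT3G45930, 0.823 for HTB6 and 0.387 for HTR9. The FACT subunits had -0.322 (SPT16) and -0.466 (SSRP1). ROS1 had 0.676 and MCM7 -0.542.

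Among the genes with the largest differences it was 1.81 for AT1G09500, 2.89 for AT5G44440, 1.81 for AT5G65980, 1.21 for CYP72A8, 0.951 for FRO6, -2.9 for M17, -3.67 for AT3G05727, -3.3 for MIOX2, -3.99 for AT4G22490, -1.17 for AT5G03545 and -2.39 for AT3G59930. The genes chosen for the size of the interaction itself had 5.04 (AT5G42530), 4.47 (AT2G25510), 3.88 (ECS1) and -3.21 (TIP3;1), which is a description.

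In growth, the interaction was 2.97 for SAUR22, 2.36 for SAUR23, 1.51 for SAUR20, 1.76 for YUC3, 1.53 for YUC8, 0.96 for ATHB2, 1.24 for HAT2, -0.566 for DWF4 and -1.02 for XTH24. In heat and stress it was 3.9 for HSP17.6A, 2.34 for HSP17.6C, 2.21 for HSP17.6II, 1.48 for HSP23.6, 1.11 for MBF1C, 1.19 for HSFA2, 0.395 for BIP2 and -1.39 for LTI78. In light and clock genes it was -1.73 for GI, -0.88 for PRR7, -1.81 for LHCB1.4, 2.25 for LHCB4.3, 1.19 for CHLH and 0.361 for HEMA1.

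In defence and secondary metabolism the values were -3.23 for CYP83A1, -1.88 for BCAT4, -1.64 for IMD1, -1.19 for ESM1, -0.43 for NSP5, 0.889 for UGT78D1, -1.18 for CHS, 1.18 for ICS1 and 0.64 for OPR3. In nutrition and surface genes they were -2.05 for BHLH100, -0.939 for VTL2, -1.01 for BHLH101, -1.33 for ASN1, 0.901 for CER1, -0.324 for CER6, -0.821 for KCS20 and -0.849 for EXPA7. In seed and floral genes they were 3.65 for CRU3, 2.4 for PAP85, 3.26 for SESA5, -2.18 for OLEO2, -1.43 for PI and -1.65 for SEP3.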

How the results depend on the processing

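The 9628 calls ranged from 8333 to 8656 when single libraries were left out (3597 to 3818 higher, 4721 to 5059 lower), where fewer libraries enter the fit. With a pseudocount of 0.1, no filter, a filter at 5 TPM, organelle genes kept in the total, median-of-ratios scaling, all 18 libraries, library weights and voom on recovered reads (added after seeing the data, 9909 calls), higher calls ranged from 3750 to 4810 and lower calls from 4681 to 5978. The requirement of a 2-fold change left 1512, by its construction. Interaction calls without single libraries ranged from 1265 to 1669, with 561 to 788 positive and 704 to 964 negative. The lowest positive count, 561 against 871, came without h3.3kd replicate 1 at 21 °C, and the cause was not tested. The replicate numbers do not establish pairs: deviations of same-numbered libraries correlated at 0.159, 0.170 and 0.0703, although each library correlated best with its own number. With the replicate block, 4420 genes were higher and 5774 lower. Of 156 results for named genes, 149 kept their direction and call in every alternative, 7 lost the call in at least 1 (EEN, KIN2, HAI1, GPAT5, BRCA1, TIP3;1 and AT2G25510), and 0 changed sign. Of 990 list counts under alternatives, 945 stayed within 1.5 times.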

Other observations

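Of 173 protein families with at least 10 tested genes, named by their RefSeq product and picked here after their values were seen, a few leaned to 1 side, against 21.7% higher and 28.5% lower over all genes tested. Plastid-lipid associated (fibrillin) proteins, which coat lipid bodies of chloroplasts, were higher in h3.3kd in 8 of 10 genes and lower in 0 (median log2 difference 0.34). The whole SAUR-like family had 27 of 51 higher and 12 lower (median 0.74). Proteins with F-box, RNI and FBD-like domains had 8 of 15 higher and 1 lower (median 0.40), and a winged-helix family had 7 of 11 higher and 1 lower (median 0.30).

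In the other direction, Tudor/PWWP/MBT proteins, whose domains are known for binding methylated histones, were lower in h3.3kd in 9 of 12 genes and higher in 0 (median -0.40). Lipid-transfer proteins, the family of AZI1, were lower in 23 of 39 and higher in 5 (median -0.66). Peroxidases were lower in 26 of 45 and higher in 7 (median -0.47). VQ-motif proteins, partners of WRKY factors, were lower in 11 of 18 and higher in 1 (median -0.44). Berberine-type oxidases were lower in 8 of 14 and higher in 2 (median -0.75), although AT5G44440 of the same family was among the 10 genes with the largest difference in favour of h3.3kd. Root markers, lower in 8 of 14, moved with the peroxidases and lipid-transfer proteins, and their part in these counts was not tested.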
